A study of Mus musculus with 6 samples.

Results

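The genes described here are the fibroblast growth factors (FGFs), their 4 receptors, and the Sprouty, Spred and dual-specificity phosphatase genes, several of which dampen ERK signalling downstream of the receptors while others act on JNK and p38 or have other substrates. They were chosen by symbol alone: the numbered *Fgf* genes except one that is not reported here, *Fgfr1* to *Fgfr4*, *Spry1* to *Spry4*, *Spred1* to *Spred3* and the numbered *Dusp* genes. The symbols picked 56 of the 59485 genes in the deposited table, of which 21 were FGF ligands, 4 receptors, 7 Sprouty or Spred genes and 24 dual-specificity phosphatases.

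FGFs bind receptor tyrosine kinases on the cell surface together with heparan sulfate, and the receptor passes the signal through adaptor proteins and RAS to the kinases RAF, MEK and ERK. Active ERK induces genes that switch the pathway off again. These are the Sprouty and Spred proteins, which act between the receptor and RAF, and several dual-specificity phosphatases (DUSPs), which remove phosphate from ERK, p38 or JNK. In peripheral nerve, ERK signalling is known both for its part in myelination and for the response of Schwann cells (SCs) to injury.

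RNA-seq was performed on sciatic nerves taken at postnatal day 4 (P4) from 3 control and 3 mutant mice, and each animal gave 1 library. The controls are labelled wild-type, and according to the methods they carried floxed *Adar1* on one or both alleles and the R26R reporter without Cre. The mutants are labelled Ht-PA-Cre; Adar1fl/fl;R26R: Cre driven by the promoter of human tissue plasminogen activator removes the floxed segment of both *Adar1* alleles (gene symbol *Adar*) in neural crest cells and their descendants, which include SCs, and R26R marks these cells with YFP. Other cells of the nerve, such as endothelial cells and blood cells, keep the floxed alleles.

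Each library had between 50938349 and 78250094 reads counted on genes. The values given below are the deposited normalized read counts, in which 1 read is worth 0.727 to 1.27 depending on the library. *Adar* itself was higher in every library labelled mutant (11768, 9311 and 9773) than in those labelled control (1602, 2067 and 1133) (log2 fold change 2.72, adjusted p = 4.1e-05 by limma). Since the table has a single value for the whole gene, it does not show whether the floxed segment was lost, and the libraries are named by their labels, as control-labelled and mutant-labelled. The 5 SC markers examined (*Sox10*, *S100b*, *Cdh19*, *Erbb3* and *Gfra3*) were detected in every library, and 3 of them fell past the threshold. In whole-nerve RNA, fewer cells of a type and less RNA per cell cannot be told apart. For SCs, the study counted cells on electron micrographs of P4 sciatic nerve and reported similar numbers in mutants and controls.

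A gene was tested when its mean value was at least 10 in at least 1 genotype, which held for 25802 genes and for 51 of the 56 chosen genes. A gene past the threshold had changed at least 2-fold with p at or under 0.05 before adjustment, the limits used in the study, and p-values adjusted over all tested genes are given beside it. Fold changes are on the log2(value + 1) scale, mutant-labelled minus control-labelled, and ± gives the SD of the 3 libraries within a genotype (n = 3), while a standard error is marked SE.

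Of the 51 tested genes, 13 passed the threshold as higher in the mutant-labelled libraries (25.5%, beside 13.9% of all tested genes) and 9 as lower (17.6%, beside 10.4%). After adjustment, 11 of the higher and all 9 of the lower genes remained at or under 0.05. With an adjusted p at or under 0.05 and no limit on size, 18 were higher (35.3%, beside 19.0%) and 12 lower (23.5%, beside 16%). The 3 mutant-labelled values lay entirely on 1 side of the 3 control-labelled values for 35 genes (68.6%, beside 49.2%), 22 of them higher and 13 lower. The median log2 fold change was 0.41, against 0.03 over all tested genes. When the libraries were rescaled to the same total, the adjusted calls over all genes shifted to 24.5% higher and 12.0% lower, and those of the chosen genes to 39.2% higher and 17.6% lower. The direction differed by role: all 7 Sprouty and Spred genes had higher values in the mutant-labelled set, while the ligands and the phosphatases split.

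**Figure D1:**
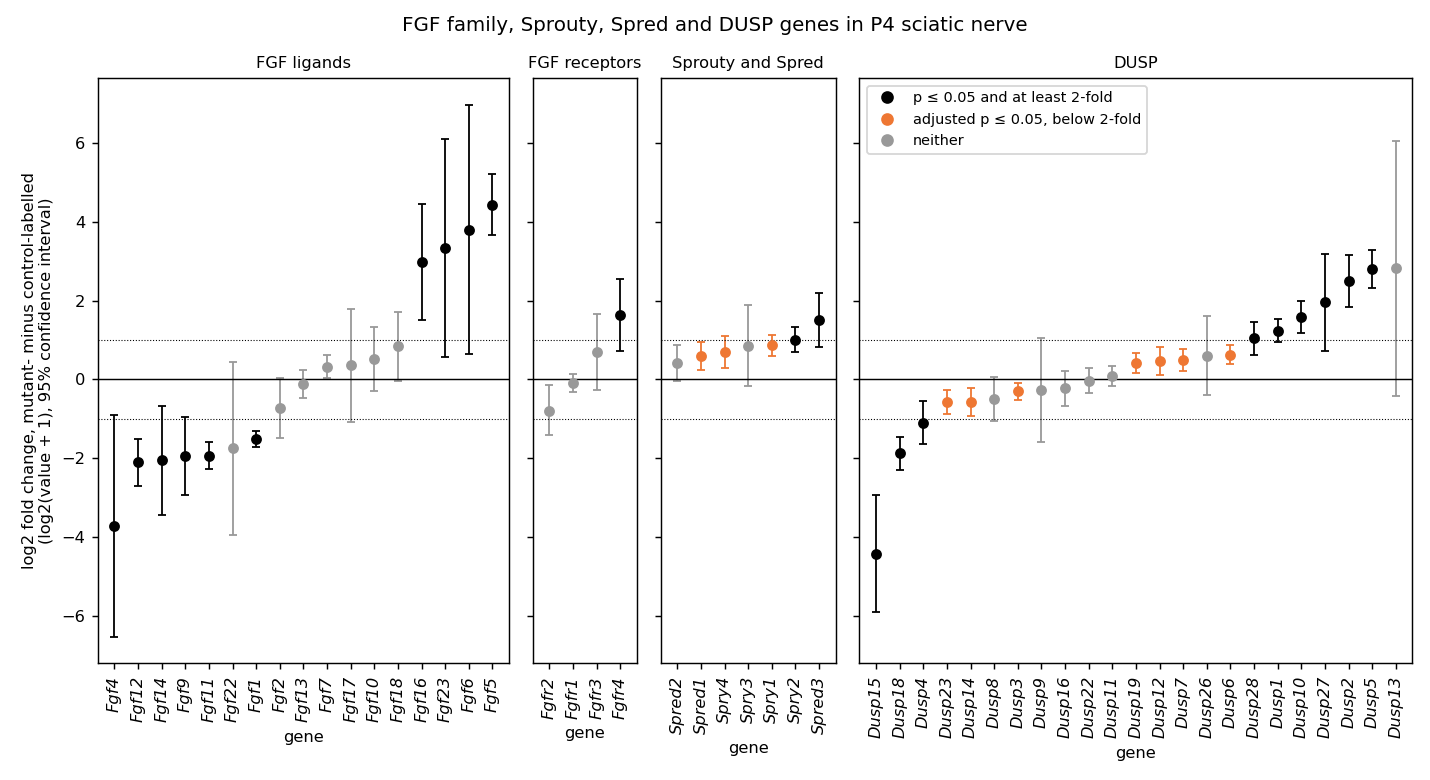
Log2 fold change (mutant-labelled minus control-labelled, on log2(value + 1)) of the 51 tested genes in 4 panels by role, with 95% confidence intervals from limma. Dotted lines mark a 2-fold change in each direction. Black points are the 13 higher and 9 lower genes past the threshold, orange points the 10 genes with an adjusted p at or under 0.05 below 2-fold, and all 7 Sprouty and Spred points lie above 0.

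Among the FGF ligands the genotype difference ran in both directions. Of 17 tested ligands, 4 passed as higher (23.5%, beside 13.9% of all tested genes), 6 as lower (35.3%, beside 10.4%) and 7 did not pass, and the median log2 fold change was -0.12. By adjusted p, 2 were higher and 6 lower (47.1% in either direction, beside 35.0% of all tested genes). The genotypes were separated for 9 ligands (52.9%, beside 49.2%). *Fgf5* rose in every mutant-labelled library, while *Fgf1* and *Fgf9* fell, as did the intracellular factors *Fgf11*, *Fgf12* and *Fgf14*.

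*Fgf5* (chr5:98254183-98277032, mm10) encodes a secreted ligand best known for ending the growth phase of hair follicles. Its values were 42.2, 38.7 and 30.4 in control-labelled replicates 1 to 3, and 561, 1298 and 759 in mutant-labelled replicates 1 to 3. Every mutant-labelled library was far above every control-labelled one. The means were 37.1 ± 6.06 and 872 ± 381, a log2 fold change of 4.44 (SE 0.34, adjusted p = 4.19e-05 by limma), and between 24 and 41 reads supported each control value. *Fgf4* and *Fgf6*, the other members of its subfamily, rested on few reads. *Fgf6*, a ligand of the myogenic lineage, had values of 0, 0 and 27.9 in the control-labelled set and 74.2, 13.5 and 71.2 in the mutant-labelled set. The groups overlapped, since mutant-labelled replicate 2 lay below control-labelled replicate 3. Its log2 fold change of 3.80 (adjusted p = 0.0635) passed the threshold in the limma fit, but edgeR on the recovered reads gave 2.56 with an adjusted p of 0.217. The call was also lost without control-labelled replicate 1 or 2 (3.0 each) and without mutant-labelled replicate 1 (3.40) or 3 (3.43), and the value was 5.42 without control-labelled replicate 3 and 4.59 without mutant-labelled replicate 2. *Fgf4*, known from the early embryo and the limb bud, had control values of 64.4, 34.0 and 19.0 and mutant values of 18.9, 0 and 0. All 3 mutant-labelled values were lower, the highest of them by a small margin. Here too the call (log2 fold change -3.72, adjusted p = 0.046 by limma) was not shared by edgeR, which gave -2.55 with an adjusted p of 0.21, and it was lost without control-labelled replicate 1 (-3.29) and without mutant-labelled replicate 2 or 3 (-3.0 each). It was -5.16 without mutant-labelled replicate 1.

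*Fgf16*, a relative of *Fgf9* known from heart and brown fat, was higher in the mutant-labelled libraries. It had values of 73.3, 13.2 and 22.8 in the control-labelled set and 330, 295 and 127 in the mutant-labelled set. The groups did not overlap, although the control values spread widely around their mean of 36.4 ± 32.3. The log2 fold change was 2.99 (SE 0.64, adjusted p = 0.00779 by limma), and it was 3.66 without control-labelled replicate 1. *Fgf9* (chr14:58070546-58112720, mm10), first described as a factor that activates glial cells, changed in the opposite direction. Its values were 221, 201 and 345 in the control-labelled set against 74.9, 33.8 and 101 in the mutant-labelled set. No library of one genotype reached the range of the other, and the log2 fold change was -1.95 (SE 0.43, adjusted p = 0.00908 by limma). *Fgf20*, the third member of this subfamily, had no read in any library.

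*Fgf1*, the acidic FGF, a ligand for all FGF receptors that lacks a classical secretion signal, had the smallest SE of the 17 tested ligands. Its values were 14867, 13455 and 14284 in the control-labelled set and 5295, 5128 and 4549 in the mutant-labelled set. The libraries of each genotype lay close together and the genotypes far apart. The mean fell from 14202 ± 709 to 4991 ± 392, a log2 fold change of -1.51 (SE 0.09, adjusted p = 1.6e-05 by limma). *Fgf2*, the basic FGF of the same subfamily, had 250, 219 and 220 in the control-labelled set and 111, 102 and 229 in the mutant-labelled set. Mutant-labelled replicate 3 lay within the control range and the other two well below it, and the gene did not pass (log2 fold change -0.73, 95% confidence interval -1.50 to 0.03), although without that library it was past the threshold at -1.10.

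The FGF11 subfamily comprises intracellular proteins that bind voltage-gated sodium channels and are not secreted. Of its 4 genes, 3 fell past the threshold (75%, beside 10.4% of all tested genes) and *Fgf13* did not. *Fgf11* (chr11:69796068-69801716, mm10) had 1115, 1255 and 1353 in the control-labelled set and 345, 285 and 341 in the mutant-labelled set. The 2 ranges were widely separated, with a log2 fold change of -1.94 (SE 0.15, adjusted p = 4.81e-05 by limma). *Fgf12* fell from 290, 315 and 253 to 54.6, 70.4 and 73.2 (log2 fold change -2.10, SE 0.26, adjusted p = 0.000483). *Fgf14* had 35.5, 72.8 and 40.6 in the control-labelled set and 8.73, 6.75 and 19.8 in the mutant-labelled set, with at most 20 reads behind a mutant-labelled value (log2 fold change -2.05, SE 0.60, adjusted p = 0.0297, and -1.45 with a pseudocount of 10). *Fgf13*, by contrast, had 462, 498 and 474 against 466, 478 and 385. The mutant-labelled replicates 1 and 2 lay within the control range and replicate 3 below it, and the gene did not pass (log2 fold change -0.12, 95% confidence interval -0.48 to 0.25). *Fgf12*, *Fgf13* and *Fgf14* are long genes that contain 10, 9 and 13 other annotated genes on the same strand, whose reads the counting could have assigned to either.

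*Fgf23* and *Fgf15*, the endocrine FGFs examined here, were close to the detection limit. *Fgf23*, the phosphate-regulating hormone of bone, had 0, 17.01 and 0 in the control-labelled set and 14.5, 32.8 and 34.6 in the mutant-labelled set. The groups overlapped, since control-labelled replicate 2 exceeded mutant-labelled replicate 1. It passed the threshold in the limma fit only before adjustment (log2 fold change 3.34, adjusted p = 0.0619), and edgeR gave 2.20 with an adjusted p of 0.275. Leaving out control-labelled replicate 1 or 3 (2.65 each) or mutant-labelled replicate 2 (3.17) or 3 (3.13) also ended the call, and without control-labelled replicate 2 the value was 4.73. *Fgf15*, the intestinal hormone that represses bile acid synthesis, was too low to be tested. It had no read in the 3 control-labelled libraries and 6, 6 and 8 reads in the mutant-labelled ones, at least 1.81-fold higher when each control is set at a floor of 3 reads, which covers counting error only. Without the filter on low values, *Fgf15* was past the threshold before adjustment, which made 14 higher genes instead of 13.

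The remaining ligands did not pass. *Fgf7*, *Fgf10* and *Fgf22*, whose products act mainly on epithelia through a splice form of the second receptor, had log2 fold changes of 0.32, 0.51 and -1.75. The *Fgf22* value rested on 1 to 26 reads per library and was -2.47, past the threshold, without control-labelled replicate 2 and -1.15 without mutant-labelled replicate 2. *Fgf7* values of 1135, 1011 and 925 in the control-labelled set all lay below the 1176, 1355 and 1307 of the mutant-labelled set (adjusted p = 0.0827 by limma). *Fgf17* and *Fgf18* had log2 fold changes of 0.36 and 0.84, with overlapping ranges, and *Fgf18* was past the threshold without control-labelled replicate 1 (1.23) or mutant-labelled replicate 3 (1.05). *Fgf3* had no read in any library, and *Fgf8* had 1 read in 1 control-labelled library.

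**Figure D2:**
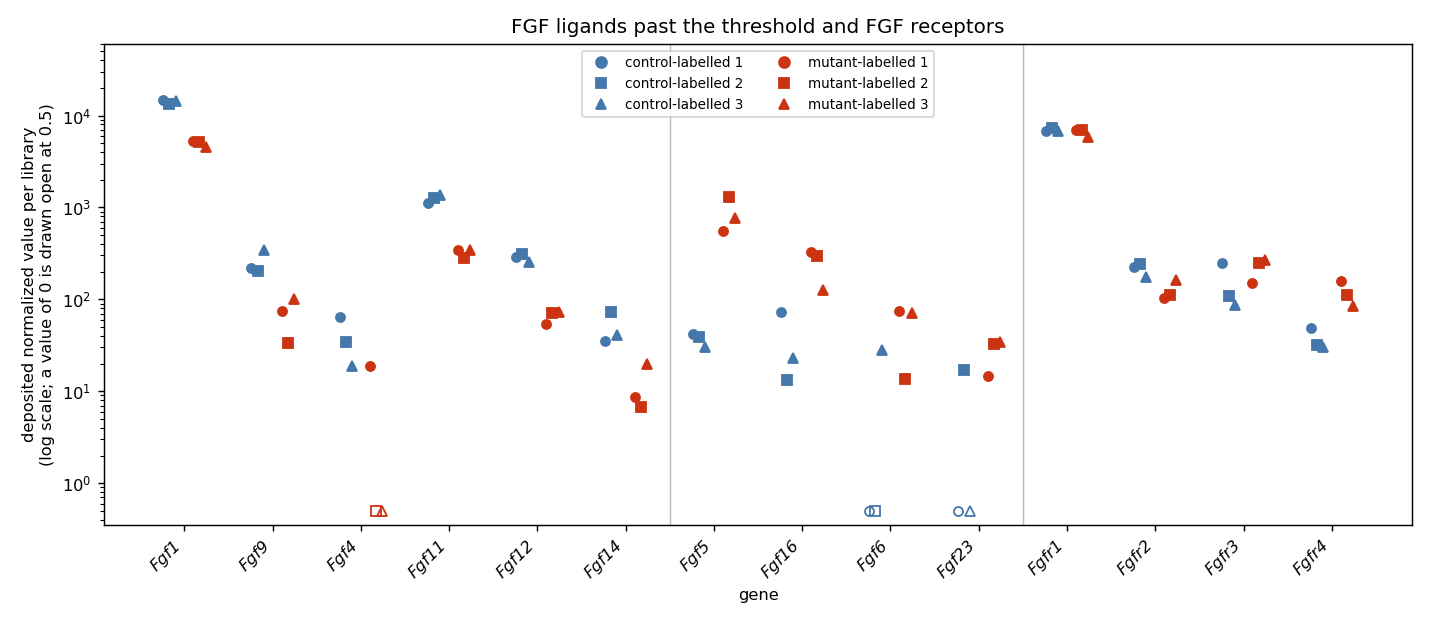
Deposited normalized values of the 10 FGF ligands past the threshold (6 lower, then 4 higher) and of the 4 FGF receptors in each library, on a log axis, with blue symbols for the 3 control-labelled and red for the 3 mutant-labelled libraries. Open symbols at the bottom are values of 0, as in 2 mutant-labelled libraries for *Fgf4*. *Fgf1*, *Fgf11* and *Fgf12* separate cleanly downwards and *Fgf5* upwards, while the *Fgfr1* values overlap.

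Of the 4 receptor genes, *Fgfr4* alone passed the threshold (25.0% as higher and 0% as lower, beside 13.9% and 10.4% of all tested genes). It was also the only one by adjusted p (25.0%, beside 35.0% of all tested genes in either direction). *Fgfr1* (chr8:25518759-25575718, mm10) had values of 6860, 7232 and 6819 in the control-labelled set and 6990, 7025 and 5820 in the mutant-labelled set. The values overlapped, and the 95% confidence interval of the log2 fold change of -0.08 ran from -0.31 to 0.15. Its sign changed when the libraries were rescaled to the same total (0.08). *Fgfr2* was at 228, 241 and 176 in the control-labelled set and 103, 111 and 163 in the mutant-labelled set. All mutant-labelled values were lower, but the gene missed the 2-fold limit and the adjusted limit (log2 fold change -0.79, adjusted p = 0.0568 by limma). *Fgfr3* had 250, 109 and 86.2 against 150, 248 and 267, and only control-labelled replicate 1 overlapped with the mutant-labelled set. Its log2 fold change was 0.69 (adjusted p = 0.243), and without that library it was 1.14 and past the threshold. *Fgfr4* (chr13:55152637-55168759, mm10), a receptor known from liver and from developing muscle, rose. The 48.9, 32.1 and 30.4 of the control-labelled set all lay below the 160, 111 and 84.1 of the mutant-labelled set, and the log2 fold change was 1.63 (SE 0.40, adjusted p = 0.014 by limma).

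The Sprouty and Spred genes, the feedback inhibitors between receptor and RAF, were separated by genotype throughout. In all 7, the lowest mutant-labelled value exceeded the highest control-labelled value (100%, beside 49.2% of all tested genes in either direction). Of these, 5 had an adjusted p at or under 0.05 (71.4%, beside 35.0% of all tested genes in either direction), and 2, *Spry2* and *Spred3*, were also past the 2-fold limit (28.6%, beside 13.9% of all tested genes as higher). The median log2 fold change of the 7 was 0.86.

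*Spry2* (chr14:105891949-105896821, mm10), the best studied Sprouty, had 3808, 3253 and 3917 in the control-labelled set and 8789, 6273 and 7204 in the mutant-labelled set. The means were 3659 ± 356 and 7422 ± 1272, and the log2 fold change was 1.01 (SE 0.14, adjusted p = 0.000824 by limma). This lies at the 2-fold limit, and it was 0.93 without control-labelled replicate 2 and 0.88 without mutant-labelled replicate 1. *Spry1*, at 2129, 2420 and 2594 in the control-labelled set and 4463, 4716 and 3839 in the mutant-labelled set, had a log2 fold change of 0.87 (adjusted p = 0.000861), and *Spry4*, at 3028, 2258 and 3272 and then 5631, 4261 and 4009, one of 0.70 (adjusted p = 0.0149). For both, every mutant-labelled value exceeded every control-labelled one, and the gap was narrower for *Spry4*, between 3272 and 4009. *Spry3*, at 24.6 to 43.1 in the control-labelled set and 48.0 to 92.6 in the mutant-labelled set, did not pass (log2 fold change 0.86, adjusted p = 0.175).

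*Spred3* (chr7:29158827-29169841, mm10), the member of the Spred family that lacks a working KIT-binding domain, rose from 65.5, 112 and 93.8 to 264, 206 and 301. Its lowest mutant-labelled value was well above its highest control-labelled one, and the log2 fold change was 1.51 (SE 0.30, adjusted p = 0.00506 by limma). *Spred1*, the gene mutated in Legius syndrome, had 1078, 1116 and 1248 in the control-labelled set and 1615, 1477 and 2162 in the mutant-labelled set (log2 fold change 0.59, adjusted p = 0.0199). *Spred2* had 390, 577 and 631 in the control-labelled set against 655, 681 and 754 in the mutant-labelled set. The gap between the genotypes was narrow there, and the log2 fold change of 0.41 did not pass (adjusted p = 0.144), and 3 other annotated genes overlap it on the same strand.

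The DUSPs, like the ligands, split by direction. Of 23 tested, 6 passed as higher (26.1%, beside 13.9% of all tested genes) and 3 as lower (13.0%, beside 10.4%), and with an adjusted p at or under 0.05 there were 10 higher and 6 lower (69.6% in either direction, beside 35.0% of all tested genes). The inducible nuclear phosphatases *Dusp1*, *Dusp2* and *Dusp5* rose while *Dusp4*, of the same group, fell. *Dusp15*, an atypical member, also fell.

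*Dusp5* (chr19:53529318-53541322, mm10), a nuclear phosphatase specific for ERK, had values of 131, 141 and 186.3 in the control-labelled set and 1279, 899 and 1029 in the mutant-labelled set. The ranges were far apart, with means of 153 ± 29.5 and 1069 ± 193 (log2 fold change 2.80, SE 0.21, adjusted p = 4.03e-05 by limma). *Dusp2* (chr2:127336158-127338376, mm10), a phosphatase known from activated lymphocytes, went from 56.6, 64.3 and 40.6 to 350, 293 and 274 (log2 fold change 2.50, SE 0.29, adjusted p = 0.000331). *Dusp1* (chr17:26505591-26508476, mm10), an immediate early gene whose product acts on p38 and JNK as well as ERK, had 1500, 1291 and 1265 in the control-labelled set and 2809, 3698 and 3117 in the mutant-labelled set. All mutant-labelled values of these 3 genes exceeded all control-labelled ones, and for *Dusp1* the log2 fold change was 1.24 (SE 0.13, adjusted p = 0.000236 by limma). The 6 markers of T or NK cells summed to between 20.3 and 42.5 in the control-labelled set and between 283 and 663 in the mutant-labelled set, with 4 of the 6 past the threshold as higher, and their part in the value of *Dusp2* was not tested.

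*Dusp4* (chr8:34807295-34819894, mm10), which dephosphorylates ERK and JNK in the nucleus, had 4712, 5151 and 5677 in the control-labelled set and 3406, 1588 and 2601 in the mutant-labelled set. The genotypes did not overlap, and mutant-labelled replicate 1 lay closest to the control-labelled set. The mean fell from 5180 ± 483 to 2532 ± 911 (log2 fold change -1.10, SE 0.24, adjusted p = 0.00897 by limma), and the log2 fold change was -0.79 without mutant-labelled replicate 2 and -0.93 after rescaling to the same total.

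The promoter windows of the 3 inducible phosphatases that rose and of *Fgf5* are shown because the former rose together and because the libraries of the latter were widely separated by genotype. Each runs from 250 bases before to 50 bases after the RefSeq start on GRCm38.p6 (the assembly behind mm10), read 5′ to 3′ on the strand of the gene, and such windows were found for 41 of the 56 genes. The windows are chr17:26508423-26508722 (minus strand) for *Dusp1*, chr2:127335909-127336208 (plus strand) for *Dusp2*, chr19:53528895-53529194 (plus strand) for *Dusp5* and chr5:98253934-98254233 (plus strand) for *Fgf5*. Capitals mark matches, on either strand, to a set of 7 motifs: the cAMP response element TGACGTCA, the AP-1 site TGANTCA, the CArG box bound by SRF, the EGR site GCGNGGGCG, the ETS core CCGGAA, the interferon-stimulated response element (a pair of GAAA repeats with 2 bases between them), and the NF-kB site.
Dusp1: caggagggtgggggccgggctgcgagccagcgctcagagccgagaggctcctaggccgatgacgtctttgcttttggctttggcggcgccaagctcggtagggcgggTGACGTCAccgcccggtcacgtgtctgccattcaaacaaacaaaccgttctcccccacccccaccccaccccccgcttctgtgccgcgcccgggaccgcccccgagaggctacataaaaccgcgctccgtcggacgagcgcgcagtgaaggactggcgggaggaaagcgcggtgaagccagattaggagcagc
Dusp2: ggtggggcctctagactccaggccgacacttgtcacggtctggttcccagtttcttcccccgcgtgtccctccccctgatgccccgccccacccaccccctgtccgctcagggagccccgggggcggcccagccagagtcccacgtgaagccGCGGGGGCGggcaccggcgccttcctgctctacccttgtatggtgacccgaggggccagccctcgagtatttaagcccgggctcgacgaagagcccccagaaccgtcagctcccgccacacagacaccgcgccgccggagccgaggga
Dusp5: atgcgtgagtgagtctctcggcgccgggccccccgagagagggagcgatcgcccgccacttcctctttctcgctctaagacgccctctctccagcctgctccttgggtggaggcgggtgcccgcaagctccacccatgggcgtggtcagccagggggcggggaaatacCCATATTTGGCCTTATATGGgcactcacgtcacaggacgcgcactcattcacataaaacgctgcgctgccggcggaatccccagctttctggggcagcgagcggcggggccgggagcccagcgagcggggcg
Fgf5: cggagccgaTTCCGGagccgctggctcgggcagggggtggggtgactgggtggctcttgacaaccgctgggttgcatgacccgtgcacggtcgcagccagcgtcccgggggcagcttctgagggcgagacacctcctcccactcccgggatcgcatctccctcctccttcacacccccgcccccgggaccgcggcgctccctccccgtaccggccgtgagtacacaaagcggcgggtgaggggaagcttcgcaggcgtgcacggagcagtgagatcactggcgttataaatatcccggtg

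The *Dusp1* window holds 1 cAMP response element, which begins 143 bases before the start, and such an element is present in 1.80% of the 32544 different promoter windows of this table. The *Dusp5* window holds 2 adjacent CArG boxes that begin 82 and 72 bases before the start, and 1.64% of the windows hold a CArG box. In the *Dusp2* window there is an EGR site 98 bases before the start (5.60% of windows), and in that of *Fgf5* an ETS core, read on the opposite strand, 241 bases before it (15.0%). The 41 genes have 51 different windows, since some genes have several starts. Of these 51 windows the cAMP response element was found in 2, the AP-1 site in 3 (7.79% of windows), the CArG box in 1, the EGR site in 8, the ETS core in 6, the NF-kB site in 3 (4.53%) and the interferon-stimulated response element in 0 (3.45%). The cAMP response element was also in *Dusp8*, which did not pass. The EGR site was also in *Dusp16*, *Dusp22*, *Dusp23*, *Fgf2*, *Fgf3*, *Fgf13* and *Fgfr3*, none of them past the threshold. The ETS core was also in *Dusp27*, *Fgfr4* and *Spry2*, which passed as higher, *Fgf12*, which passed as lower, and *Dusp14*, which did not pass. These matches describe the letters of the windows and were not tested for binding or against the fold changes.

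Of the 3 cytoplasmic, ERK-selective phosphatases, *Dusp6* and *Dusp7* rose by less than 2-fold and *Dusp9* did not pass. *Dusp6*, the classical feedback phosphatase of FGF signalling, had 4468, 4988 and 4712 in the control-labelled set and 7472, 6552 and 7993 in the mutant-labelled set. The genotypes were clearly separated, and the log2 fold change was 0.63 (SE 0.10, adjusted p = 0.00196 by limma). *Dusp7* went from 2611, 2692 and 2604 to 4334, 3776 and 3169 (log2 fold change 0.50, adjusted p = 0.0148), while *Dusp9* lay between 29.1 and 115 over all libraries with overlapping ranges (log2 fold change -0.27, adjusted p = 0.742). Of the phosphatases selective for JNK and p38, only *Dusp10* (chr1:184034381-184075636, mm10) passed (33.3% as higher and 0% as lower, beside 13.9% and 10.4% of all tested genes). It had 376, 366 and 322 in the control-labelled set and 997, 919 and 1332 in the mutant-labelled set, a wide separation with a log2 fold change of 1.59 (SE 0.18, adjusted p = 0.000288 by limma). *Dusp10* has 2 other annotated genes within it on the same strand. *Dusp8* and *Dusp16* had log2 fold changes of -0.50 and -0.23 with overlapping ranges.

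**Figure D3:**
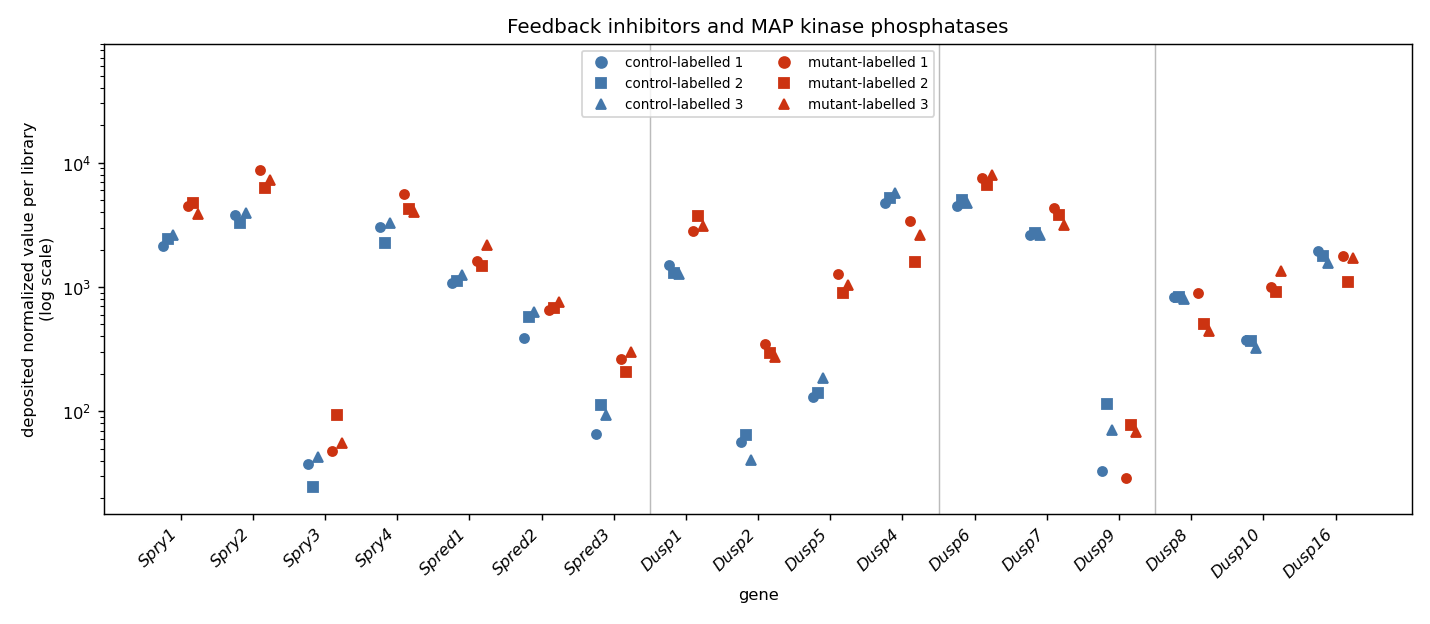
Deposited normalized values of the 7 Sprouty and Spred genes and of 10 MAP kinase phosphatases in each library, on a log axis, with blue symbols for the 3 control-labelled and red for the 3 mutant-labelled libraries. Vertical lines divide the inhibitors, the nuclear inducible, the cytoplasmic and the JNK- or p38-selective phosphatases. Red symbols lie above blue ones for all 7 inhibitors and for *Dusp1*, *Dusp2*, *Dusp5*, *Dusp6*, *Dusp7* and *Dusp10*, and below them for *Dusp4*.

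The atypical DUSPs are small phosphatases without the MAP kinase docking domain, and several do not act on MAP kinases. Of 13 tested, 2 passed as higher and 2 as lower (15.4% each, beside 13.9% and 10.4% of all tested genes). *Dusp15* (chr2:152940995-152951582, mm10), an enzyme known from differentiating myelinating glia, had 51480, 53538 and 67680 in the control-labelled set and 7972, 854 and 2739 in the mutant-labelled set. Every mutant-labelled value was several times lower, and the mutant-labelled libraries also differed strongly among themselves. The mean fell from 57566 ± 8819 to 3855 ± 3688, a log2 fold change of -4.43 (SE 0.65, adjusted p = 0.00121 by limma), which was -5.22 without mutant-labelled replicate 1 and -3.61 without mutant-labelled replicate 2. *Dusp18* (chr11:3895240-3901296, mm10), a phosphatase found at mitochondria, went from 8524, 9766 and 10988 to 3571, 2299 and 2210 (log2 fold change -1.88, SE 0.19, adjusted p = 0.00016).

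Both atypical DUSPs past the threshold as higher followed the library order of the skeletal muscle markers. *Dusp27* (chr1:166098149-166127925, mm10), a catalytically inactive member that is expressed in striated muscle, had 159, 49.1 and 86.2 in the control-labelled set and 257, 222 and 714 in the mutant-labelled set. The groups did not overlap, but mutant-labelled replicate 3 stood well above the others (log2 fold change 1.96, SE 0.54, adjusted p = 0.0223 by limma). *Dusp28* had 409, 296 and 390 in the control-labelled set and 775, 655 and 832 in the mutant-labelled set (log2 fold change 1.05, SE 0.18, adjusted p = 0.00279), and it was below 2-fold without control-labelled replicate 2 (0.91) or mutant-labelled replicate 3 (0.98). *Dusp13*, known from testis and skeletal muscle, had 19.99, 0 and 2.53 against 52.4, 3.86 and 101. Its groups overlapped and it did not pass in the limma fit (log2 fold change 2.83, adjusted p = 0.157), but it did before adjustment with DESeq2 on the recovered reads (2.80) and without control-labelled replicate 1 (3.99) or mutant-labelled replicate 2 (4.13). The value was 1.79 without control-labelled replicate 2.

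The other atypical DUSPs changed by less than 2-fold. *Dusp12* (log2 fold change 0.47) and *Dusp19* (0.41, on a row shared with *Nup35*) had adjusted p-values of 0.0418 and 0.0175 as higher. *Dusp14*, *Dusp23* and *Dusp3* had adjusted p-values of 0.0216, 0.0109 and 0.0355 as lower, with log2 fold changes of -0.57, -0.57 and -0.30. The calls for *Dusp12* and *Dusp3* were lost with edgeR (adjusted p = 0.0512 and 0.0609). *Dusp11*, *Dusp22* and *Dusp26* did not pass (0.08, -0.03 and 0.60), and *Dusp21* had no read in any library.

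Markers of other cell types differed between the genotypes and are given beside genes with a like order of libraries. The 8 skeletal muscle markers summed to 34639, 6952 and 26779 in the control-labelled set and to 100964, 44674 and 329040 in the mutant-labelled set, and 7 of the 8 passed the threshold as higher. *Dusp27* and *Dusp28* had exactly this order of the 6 libraries, which means that all 15 pairs of libraries agreed (3.92% of the 51 genes, beside 1.09% of all tested genes), and *Dusp10*, *Dusp13* and *Dusp19* agreed in 14 of the 15 (5.88%, beside 3.54%). *Fgfr4* did not follow it within the mutant-labelled set, since its highest value was in replicate 1. *Fgf6* had the same order in 11 of the 15 pairs and in 3 of the 6 within genotypes. The part of muscle RNA in these values was not tested.

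The 5 SC markers summed to 33871, 34086 and 34172 in the control-labelled set and to 18460, 12555 and 16346 in the mutant-labelled set. The control-labelled sums lay so close together that their order carries little. *Dusp15*, *Dusp4* and *Fgf11* had the same order of libraries in all 15 pairs (5.88%, beside 2.02% of all tested genes), and *Dusp14* and *Dusp18* in 14 (3.92%, beside 4.78%). For *Dusp15* the lowest and highest mutant-labelled values, 854 and 7972, came from the libraries with the lowest and highest SC marker sums. The 9 pairs between genotypes agree for every gene that is separated in the direction of the markers, so only the 6 pairs within genotypes carry further information. Over the 51 genes all 6 agreed for 4 genes with the muscle sum (*Dusp27*, *Dusp28*, *Dusp13* and *Fgf2*) and for 4 with the SC sum (*Dusp15*, *Dusp4*, *Fgf11* and *Dusp5*). These are 7.84% of the 51 genes each, beside 3.06% of all tested genes for the muscle sum and 4.35% for the SC sum, and at such small numbers nothing particular to the chosen genes is read from them. Of these, *Fgf2* had a lower mean in the mutant-labelled set and *Dusp5* a higher one, against the direction of the markers. The part of SC number in these values was not tested. Of the other marker lists, 3 of 6 macrophage markers and 4 of 5 erythroid markers were lower past the threshold, with 1 macrophage marker higher. The fibroblast and perineurial lists each had 1 of 6 markers lower, 2 of 5 tested myoblast markers were higher, and none of the endothelial, pericyte or adipocyte markers passed. The 6 endothelial markers summed to 19857, 16260 and 12856 in the control-labelled set and to 18574, 24973 and 20255 in the mutant-labelled set, and *Kdr* (0.81, adjusted p = 0.0331 by limma) and *Emcn* (0.57, adjusted p = 0.0339) were higher by adjusted p. *Fgf5*, *Fgf7*, *Fgf10* and *Dusp1* had the order of this sum in all 6 pairs within genotypes (7.84%, beside 3.38% of all tested genes), which is also the order of the pericyte sum. The myoblast sum had the order of the muscle sum, and each of the remaining lists had 0 to 3 such genes. The part of these cell types in the values was not tested. No marker of these lists was at 0 in all libraries.

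**Figure D4:**
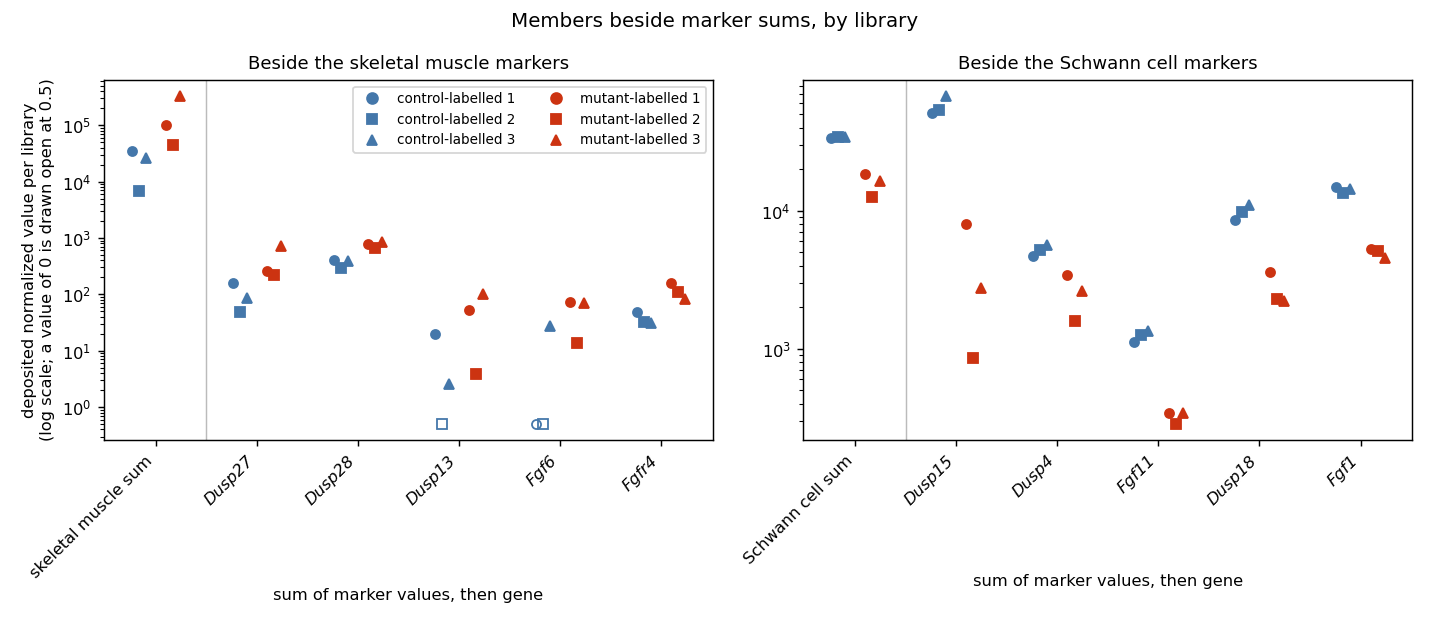
Sum of the values of 8 skeletal muscle markers (left) and 5 SC markers (right) in each library, followed by 5 genes each, as deposited normalized values on a log axis; blue symbols are the control-labelled and red the mutant-labelled libraries, and open symbols are values of 0. On the left, mutant-labelled replicate 3 (red triangle) is highest for the muscle sum, *Dusp27*, *Dusp28* and *Dusp13*. On the right, mutant-labelled replicate 2 (red square) is lowest for the SC sum, *Dusp15*, *Dusp4* and *Fgf11*.

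Genes around the chosen ones were examined in 5 lists, from co-receptors and carriers that hold FGFs at the cell surface to genes downstream of ERK. The latter list is called ERK-responsive here, and not every gene in it, for example *Elk1*, is known as induced by ERK. Of 21 ERK-responsive genes, 10 passed the threshold as higher (47.6%, beside 13.9% of all tested genes) and none as lower (0%, beside 10.4%). By adjusted p, 14 were higher and 1 lower (71.4% in either direction, beside 35.0%), and the median log2 fold change of the 21 was 0.88. *Fosl1*, which encodes an AP-1 subunit, had 11.1, 25.5 and 24.1 in the control-labelled set and 1865, 2208 and 2875 in the mutant-labelled set (log2 fold change 6.83, adjusted p = 6.33e-06 by limma). *Egr1*, an immediate early transcription factor, rose from 5398, 4949 and 5006 to 72139, 58212 and 62602 (log2 fold change 3.65, adjusted p = 8.4e-07). *Myc* and *Phlda1* followed with 2.84 and 2.75. Of the ETS factors known as readouts of FGF signalling, *Etv4* had 0.84 (adjusted p = 0.00869), *Etv5* 0.53 (adjusted p = 0.0089) and *Etv1* -0.20 (adjusted p = 0.45). *Il17rd*, a membrane antagonist of FGF receptors, did not pass with 0.85 (adjusted p = 0.231), and neither did *Ccnd1* (-0.04) and *Epha4* (-0.62). *Fosl1*, *Egr1*, *Myc* and *Phlda1* are also induced by other signals, such as cytokines and stress.

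Of 19 FGF co-receptors, carriers and heparan sulfate enzymes, 4 passed as higher (21.1%, beside 13.9% of all tested genes) and 2 as lower (10.5%, beside 10.4%), with a median log2 fold change of 0.34. By adjusted p, 6 were higher and 2 lower (42.1% in either direction, beside 35.0% of all tested genes). *Fgfbp1*, which releases FGFs from the matrix, had a log2 fold change of 2.52 (adjusted p = 0.0323 by limma), which was 1.81 without mutant-labelled replicate 1 and 3.19 without control-labelled replicate 1. The syndecan *Sdc4* (1.50, adjusted p = 8.72e-05) and the transmembrane protein *Flrt3* (1.47, adjusted p = 5.07e-05) rose, with mutant-labelled values above all control-labelled values. *Flrt1* was lower at -1.43 but not by adjusted p (0.087), and it was no longer past the threshold without mutant-labelled replicate 1 (-0.74) or without control-labelled replicate 1 (-1.52), 2 (-1.27) or 3 (-1.49). The other lower gene, *Gpc3*, lay at the 2-fold limit (-1.01). It fell short without control-labelled replicate 1 (-0.97) or 2 (-0.96), or mutant-labelled replicate 1 (-0.98) or 3 (-0.94). *Gpc1*, higher at 1.03, fell short without control-labelled replicate 1 (0.99) or mutant-labelled replicate 3 (0.97). Of 12 adaptor genes none passed the threshold in either direction (0%, beside 13.9% and 10.4% of all tested genes), with a median of -0.07. By adjusted p, 2 adaptor genes were higher and 1 lower (25.0% in either direction, beside 35.0%). Of 15 genes of the RAS-ERK cascade, *Braf* (1.40, adjusted p = 0.00441) was higher and none was lower past the threshold (6.67% and 0%, beside 13.9% and 10.4% of all tested genes). By adjusted p, 4 of the 15 were higher and 4 lower (53.3% in either direction, beside 35.0% of all tested genes). Of 13 JNK, p38 and ERK5 kinases, *Mapk10* (2.22, adjusted p = 0.028) was higher and *Map2k6* (-1.62, adjusted p = 0.00849) lower (7.69% each, beside 13.9% and 10.4%). By adjusted p, 5 of the 13 were higher and 2 lower (53.8% in either direction, beside 35.0% of all tested genes). *Mapk10* was at 2.88 without control-labelled replicate 1 and 1.51 without control-labelled replicate 3.

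**Figure D5:**
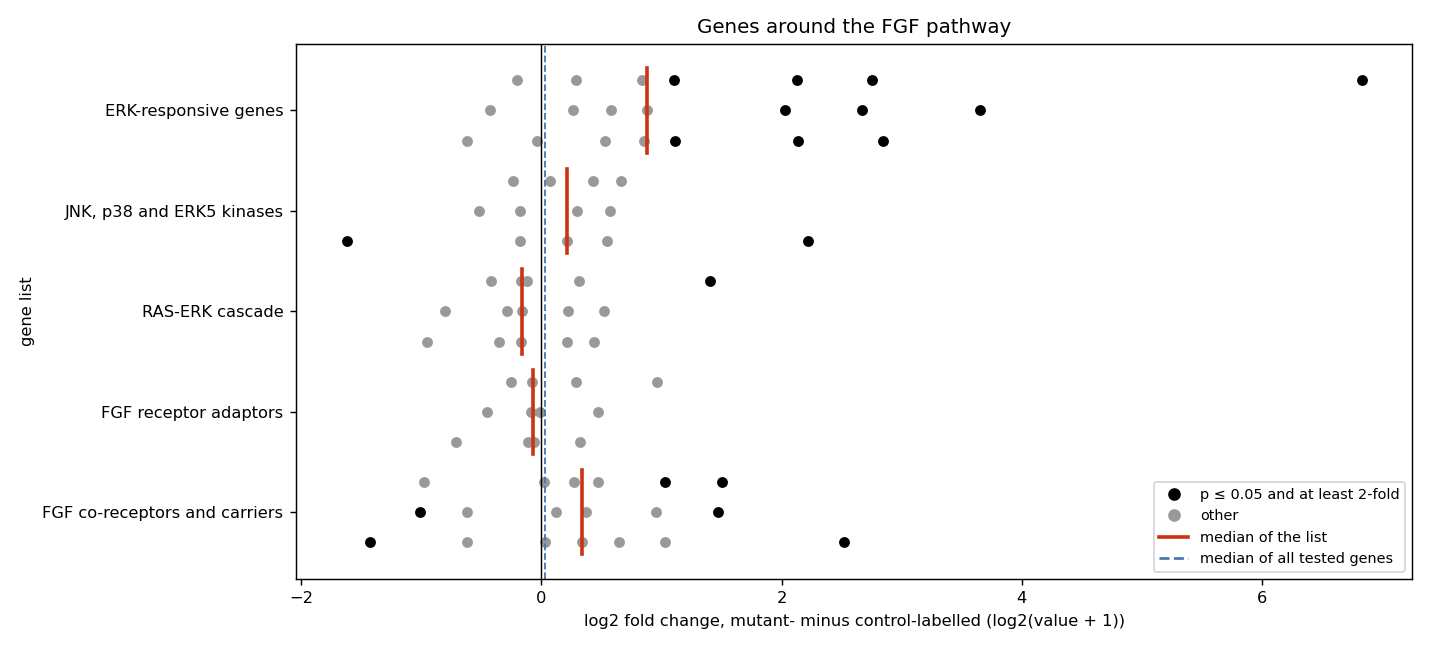
Log2 fold change (mutant-labelled minus control-labelled) of single genes in 5 lists around the FGF pathway; black points are past the threshold, grey points are not, the red line is the median of a list and the dashed blue line the median of all tested genes, 0.03. The ERK-responsive list lies furthest to the right, with a median of 0.88 and *Fosl1* at 6.83, while the adaptor list has no black point.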

How the data were processed

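RNA-seq of sciatic nerves from P4 mice was analysed from 1 deposited table. For each FAST DB 2018_1 gene, the authors counted reads on constitutive regions after mapping to mm10 with STAR 2.4.0 and normalized them with DESeq size factors, which gives the deposited signal per gene and library. The values of each library were whole multiples of the value of 1 read in 100% of cases (within 0.1 of a read), and the reads so recovered were used in edgeR and DESeq2. The expression filter of the study was not applied. Libraries were grouped by genotype from the labels, and the 3 replicates of a genotype are different animals.

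log2(value + 1) of genes with a mean of at least 10 in at least 1 genotype was fitted with limma 3.58.1 (lmFit, eBayes with trend) in R 4.3.3, and p-values were adjusted by the Benjamini-Hochberg method over all tested genes. The chosen genes, the lists, the markers and the motifs were chosen with earlier results of these data known. Named with values were all chosen genes past the threshold or with an adjusted p at or under 0.05, all receptors, Sprouty and Spred genes, and from each pathway list at most 4 genes past the threshold with the largest change, besides *Etv4*, *Etv5*, *Egr1* and *Il17rd*. *Fgf2*, *Fgf7*, *Fgf13*, *Dusp13*, *Etv1*, *Ccnd1*, *Epha4*, *Gpc1*, *Gpc3*, *Kdr* and *Emcn* were given with values after these had been seen, besides genes named to complete a subfamily. Alternatives were pseudocounts of 0.1 and 10, no filter and a mean of at least 50, rescaling to the same total or 75th percentile, TMM factors, eBayes without trend, edgeR 4.0.16, DESeq2 1.42.0, an adjusted p limit, a replicate block, and each library left out. The scripts were tested on simulated data. Coordinates are those of the deposited table (mm10). Gene lengths were not used and levels were not compared between genes. Promoter windows are from RefSeq (GRCm38.p6). Of the SC marker and RAS-ERK lists, 3 genes are not reported here and were left out of the counts and sums.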

Additional observations from a re-analysis of the deposited data

How the results depend on the processing

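Across the alternatives, 816 of 862 values for the 51 tested genes kept their direction and their side of the threshold, 24 lost the call, 10 gained it and 12 changed sign. The sign changes were for genes that did not pass. *Fgfr1* (-0.08) and *Dusp22* (-0.03) became 0.08 and 0.14 after rescaling to the same total and 0.01 and 0.07 after rescaling to the same 75th percentile, and *Fgf13* (-0.12) became 0.05 after the former. With single libraries left out, *Fgfr1* ranged from -0.13 to 0.01, *Dusp22* from -0.12 to 0.04, *Dusp9* from -0.74 to 0.16 and *Fgf17* from -0.17 to 0.82. These rescalings moved the median log2 fold change of all genes from 0.03 to 0.19 and 0.13. The calls that were lost belonged to *Fgf4*, *Fgf6*, *Fgf23*, *Spry2*, *Dusp4* and *Dusp28*, and those gained to *Fgfr3*, *Spry1* (1.03 after rescaling to the same total), *Dusp13*, *Fgf2*, *Fgf18* and *Fgf22*. The counts of 13 higher and 9 lower genes were 11 and 8 with edgeR and 12 and 8 with DESeq2, which lost *Fgf6* and *Fgf23* and gained *Dusp13* among the higher genes. Without single libraries they ranged from 10 to 14 and from 7 to 10. Without the variance trend, 20 instead of 30 genes had an adjusted p at or under 0.05. With a replicate block the counts were 14 higher (*Dusp13* gained at 2.83), 9 lower and 28 by adjusted p, but libraries with the same number did not deviate together (correlations of -0.062, -0.055 and 0.009), so the numbers do not pair the animals, and not every library correlated best with its own number. For *Fgf4*, *Fgf6* and *Fgf23*, which had libraries without a read, pseudocounts of 0.1 and 10 gave -5.92 and -1.68, 5.99 and 1.80, and 5.53 and 1.37.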
